A study of Mus musculus with 12 samples.

Results

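The interferon-response and MHC class I module comprised 37 mouse genes, each chosen by its symbol and joined by Ensembl identifier to the deposited expression tables, and all 37 were among the 45792 genes listed there. Of these, 36 passed the filter on low counts, which kept 15706 genes of the whole series. Oas1a, an oligoadenylate synthetase, was left untested with 0 to 3 counts in each library. By role, the members were 2 receptor chains, 6 transcription factors, 4 genes of cytosolic RNA sensing, 2 genes of the ISG15 system, 14 antiviral effectors, 1 chemokine and 8 genes of MHC class I and its peptide supply.

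RNA-seq was performed on neural stem cells (NSCs) grown from the forebrains of newborn pups in serum-free medium with EGF and FGF. Per the methods of the study, each Ncf1-/- pup gave a pair of cultures, for vehicle and for Igfbp2. WT mice were C57BL/6J, and Ncf1-/- mice carried a germline mutation of Ncf1 (a cytosolic subunit of NADPH oxidase), not limited to any cell type, and had been backcrossed to C57BL/6J. The 12 libraries were 4 of WT NSCs (libraries 9 to 12), 4 of Ncf1-/- NSCs given vehicle (libraries 1 to 4, labelled as having no treatment) and 4 of Ncf1-/- NSCs given recombinant mouse Igfbp2 (libraries 5 to 8). Igfbp2, an insulin-like growth factor-binding protein, was added 48 h after plating and RNA was taken 48 h later. The labels give 100 ng/ml of Igfbp2, whereas the methods of the study state a lower dose. There was no WT culture with Igfbp2. The comparisons asked how NSCs without Ncf1 differ from WT NSCs and what added Igfbp2 changes in them.

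Type I interferons bind a receptor made of Ifnar1 and Ifnar2, and Jak kinases at the receptor then activate transcription factors, among them Stat2 with Irf9, that switch on interferon-stimulated genes. The products of these genes restrict viruses at entry, replication or budding, and they include further sensors and transcription factors of the pathway itself. The same signals, and above all interferon gamma, raise the MHC class I system, in which immunoproteasome subunits cut peptides, Tap1 and Tap2 carry them into the endoplasmic reticulum, and tapasin (Tapbp) loads them onto a class I heavy chain bound to B2m. In the brain, neural stem and progenitor cells are known for keeping a set of interferon-stimulated genes on without infection.

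Total estimated counts were 18201622 to 34086554 per library. Ncf1 itself had 1 to 7 counts in every library, WT included, so its RNA could not check the genotype. Neural stem cell markers (6 genes) summed to 2217 to 7634 CPM (counts scaled to the library size, here with TMM factors) in WT, 7483 to 8113 in Ncf1-/- vehicle and 7319 to 7873 in Igfbp2-treated libraries, but 3 of the 6 were called lower and 2 higher in each Ncf1-/- group than in WT, and Vim alone made up 3848 to 4311 CPM of the vehicle sum. Oligodendrocyte markers (6 genes) summed to 1483 to 8961 CPM in WT, against 192 to 247 and 208 to 281 CPM in the Ncf1-/- groups. Of immune cells there was little RNA, since 10 microglia and macrophage markers summed to 0.835 to 2.13 CPM with C1qa and C1qb at 0 throughout, and 5 T and NK cell markers summed to at most 0.218 CPM with Cd3e, Cd3g, Nkg7 and Ncr1 at 0. Vehicle libraries had Y-linked RNA at 105 to 116 CPM (4 genes) together with Xist at 72.3 to 87.8 CPM, and Igfbp2-treated libraries had 7.79 to 9.18 CPM of Y-linked RNA with Xist at 166 to 275 CPM, although the study describes both as cultures of the same animals. WT library 12 also differed from the other WT libraries in Y-linked RNA (6.46 against 107 to 118 CPM) and in Xist (291 against 3.87 to 5.22 CPM). It is listed as treated with apocynin, an inhibitor of NADPH oxidase, in an alternative sample sheet of the study. Its label was followed, and counts without it are given beside the main ones.

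Promoter sequence was compared with the measured levels because many interferon-stimulated genes hold an interferon-stimulated response element (ISRE), which Irf factors bind, and others a gamma-activated site (GAS). RefSeq promoters (GRCm38.p6, 250 bases before to 50 after the gene start) matched 31 of the 37 members. The ISRE core, taken as GAAA, any 2 bases and GAAA again and searched on both strands, was in the window of 15 of the 31 members (48.4%) and of 3.99% of all 27025 genes with a promoter. The letters TTCNNNGAA of the GAS were in 8 of the 31 (25.8%) and in 9.55% of all genes. Of the tested members, 8 of 14 with an ISRE match and 11 of 16 without one were higher in Ncf1-/- vehicle than in WT NSCs, with median log2 fold changes of 1.11 and 0.62. With a GAS match 7 of 7 and without one 12 of 23 were higher, with medians of 1.02 and 0.65, and no test was run on these groups. Over all genes tested 28.9% were higher, and the share among all genes with either match was not determined. The 5 windows printed here belong to 4 members with large differences in both Ncf1-/- groups and to the shared Tap1 and Psmb9 promoter, with matches to the ISRE letters in capitals.
Cxcl10, chr5:92348840-92349139, minus strand: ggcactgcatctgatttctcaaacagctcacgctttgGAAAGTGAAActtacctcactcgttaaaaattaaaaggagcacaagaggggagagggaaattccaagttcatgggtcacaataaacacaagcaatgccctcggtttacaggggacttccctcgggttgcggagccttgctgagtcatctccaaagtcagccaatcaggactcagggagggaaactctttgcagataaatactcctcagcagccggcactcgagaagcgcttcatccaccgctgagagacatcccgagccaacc
Bst2, chr8:71537423-71537722, minus strand: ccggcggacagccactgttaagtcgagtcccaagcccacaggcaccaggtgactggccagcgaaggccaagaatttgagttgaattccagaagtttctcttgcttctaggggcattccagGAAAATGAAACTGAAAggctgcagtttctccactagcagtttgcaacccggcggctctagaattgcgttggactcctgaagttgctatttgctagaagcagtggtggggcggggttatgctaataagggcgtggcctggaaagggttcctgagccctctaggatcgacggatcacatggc
Ifitm2, chr7:140955912-140956211, minus strand: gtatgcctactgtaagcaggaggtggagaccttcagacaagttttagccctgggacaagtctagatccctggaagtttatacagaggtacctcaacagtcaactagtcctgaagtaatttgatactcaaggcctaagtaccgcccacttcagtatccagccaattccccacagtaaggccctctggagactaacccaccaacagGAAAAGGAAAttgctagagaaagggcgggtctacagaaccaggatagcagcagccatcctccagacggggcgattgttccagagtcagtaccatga
Ifitm3, chr7:141010695-141010994, minus strand: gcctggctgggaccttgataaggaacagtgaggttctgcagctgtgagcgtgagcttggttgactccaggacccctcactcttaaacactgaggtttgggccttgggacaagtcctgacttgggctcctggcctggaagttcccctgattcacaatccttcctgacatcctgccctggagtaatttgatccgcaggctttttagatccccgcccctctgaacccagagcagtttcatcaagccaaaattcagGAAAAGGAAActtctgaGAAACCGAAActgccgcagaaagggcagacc
Tap1, chr17:34187306-34187605, plus strand: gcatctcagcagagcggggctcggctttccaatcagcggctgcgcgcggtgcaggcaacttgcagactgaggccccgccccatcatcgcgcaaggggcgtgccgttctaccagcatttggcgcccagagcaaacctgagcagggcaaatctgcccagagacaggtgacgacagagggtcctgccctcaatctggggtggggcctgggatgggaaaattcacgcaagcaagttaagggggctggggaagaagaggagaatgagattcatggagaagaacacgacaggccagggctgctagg
The match of Cxcl10 began at position -213 from the gene start and that of Ifitm2 at -46, Bst2 had 2 overlapping matches, of which the first began at position -130 from it, and the first of 2 matches of Ifitm3 began 2 bases after it. Tap1 and Psmb9 are transcribed away from each other (Psmb9 at chr17:34181987-34187764 on the minus strand and Tap1 at chr17:34187553-34197225 on the plus strand, GENCODE M21, GRCm38), and neither window held the ISRE letters. Rtp4, Dhx58, Parp14, Usp18, Tap2 and Nlrc5 had no entry in the promoter table.

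Levels of the members spanned several orders of magnitude. On the TPM scale, which is per transcript length and allows genes to be compared within a group, B2m, the invariant light chain of MHC class I, ranked highest of the 37 members in all 3 groups, with 70.8 ± 40 TPM in WT, 112 ± 13 in Ncf1-/- vehicle and 88.7 ± 6.5 in Igfbp2-treated NSCs (SD, n = 4 each). Ifitm3, a membrane protein that blocks virus entry, had 20.2 ± 20 TPM in WT and ranked next to B2m in both Ncf1-/- groups, at 89.6 ± 5.3 and 79.3 ± 7.4 TPM. Tapbp, next to B2m in WT at 32 ± 13 TPM, came after Ifnar1 in both Ncf1-/- groups, at 19.1 ± 1.3 and 14.6 ± 3.4 TPM. At the other end, 16 of the 37 members averaged under 1 TPM in WT, 10 in vehicle and 13 in Igfbp2-treated libraries, among them the helicase Dhx58, Ifit1 and Oas1a. The WT spread was as large as the mean for Ifitm3, so ranks of neighbouring members in WT were not separated by their error.

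**Figure D1:**
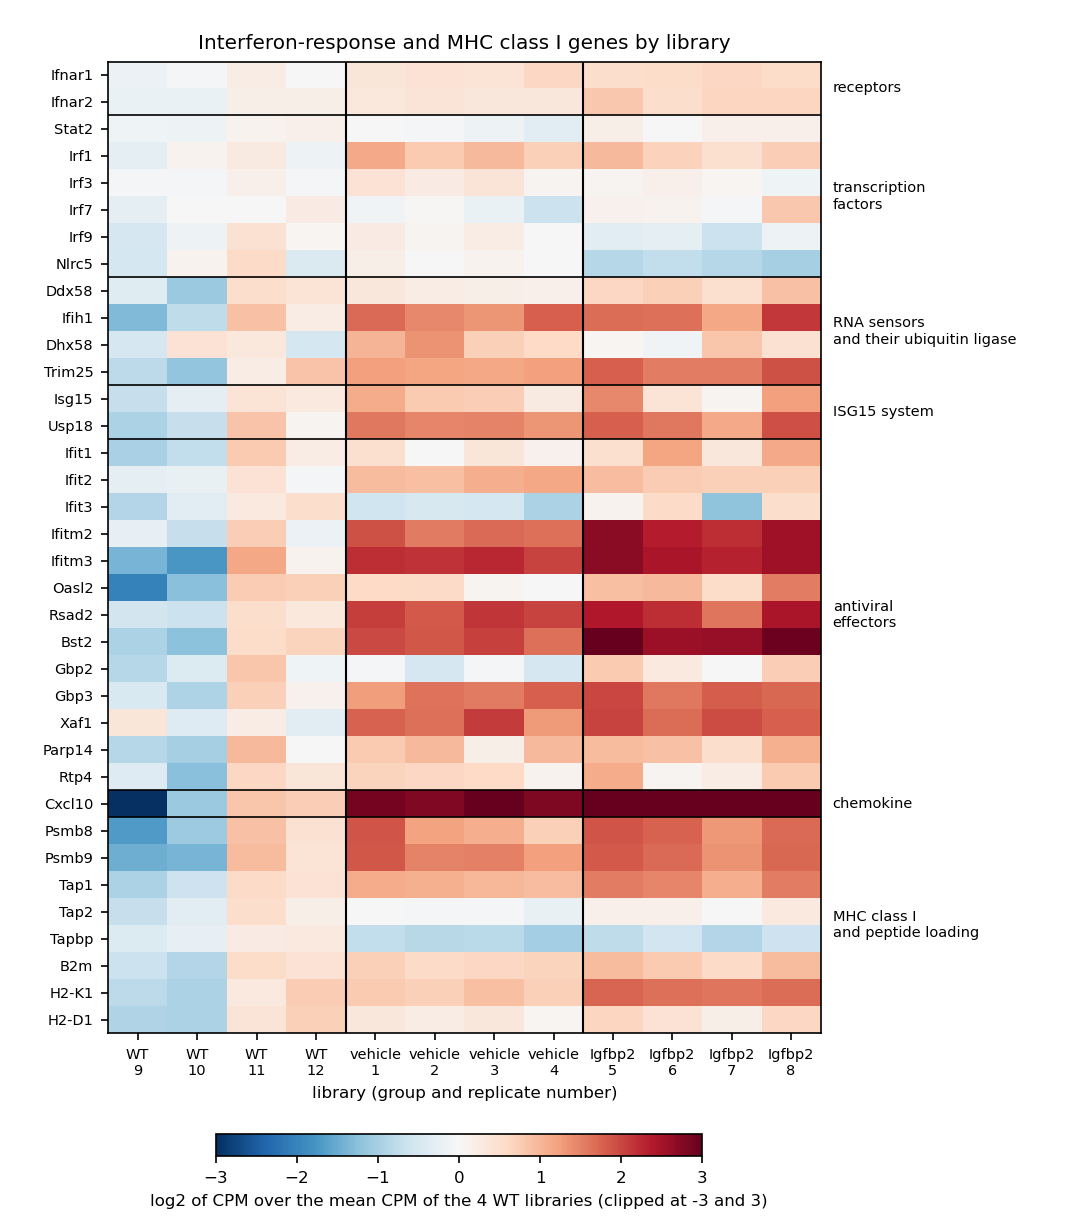
Each cell gives log2 of the CPM of a member (rows, grouped by role) in a library (columns) over the mean CPM of the 4 WT libraries. The Ncf1-/- libraries are red in most rows, Tapbp is blue in all 8 of them, and WT libraries 11 and 12 are redder than 9 and 10. TMM-scaled values are shown, and 15 of the 36 differences between Igfbp2 and vehicle change sign under scaling by library totals.

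The WT cultures were spread widely in this module, and libraries 9 and 10 were set against 11 and 12 after the values were seen. In 30 of 36 members (83.3%) both WT libraries 11 and 12 were above both 9 and 10, which held for 26.5% of all genes tested, and in 0 members were they below, against 24.7% of all genes. Irf1, Irf3, Irf7, Nlrc5, Dhx58 and Xaf1 did not follow this split. Without library 12, an alternative chosen after the values were seen, library 11 was above both 9 and 10 in 33 of 36 members (91.7%) and in 41.9% of all genes. On the TPM scale the counts were 31 and 0 of 36, with 48.8% of all genes above. The median coefficient of variation of the members was 46.8% in WT, 9.91% in vehicle and 14.2% in Igfbp2-treated libraries, and over all genes it was 15.8%, 10.1% and 11.3%. H2-D1, a class I heavy chain, reached 31.4 CPM in the lowest and 99.7 CPM in the highest WT library, a range that contained all 8 Ncf1-/- libraries (63.5 to 94.8 CPM).

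Sums of several cell type marker lists moved with this split of the WT libraries. The oligodendrocyte marker sum was 8733 and 8961 CPM in libraries 9 and 10 against 1483 and 4945 in 11 and 12, and Mbp, which encodes a main protein of compact myelin, stood at 3694, 3885, 327 and 1886 CPM in libraries 9 to 12. The astrocyte marker sum was 6267 and 6869 against 11650 and 10720 CPM, of which Gfap alone made up 3667 and 4104 against 7590 and 6536 CPM. The neural stem cell sum was 2217 and 2285 against 7634 and 3410 CPM. The neural stem cell sum followed Vim (626, 664, 4569 and 1528 CPM in libraries 9 to 12), whereas Nes stood at 120, 158, 447 and 118 CPM and did not follow the split. The microglia and macrophage sum was 1.14 and 1.67 against 1.46 and 0.835 CPM. Their part in the difference between WT libraries was not tested, and in bulk RNA fewer cells of a type and less RNA per cell cannot be told apart.

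**Figure D2:**
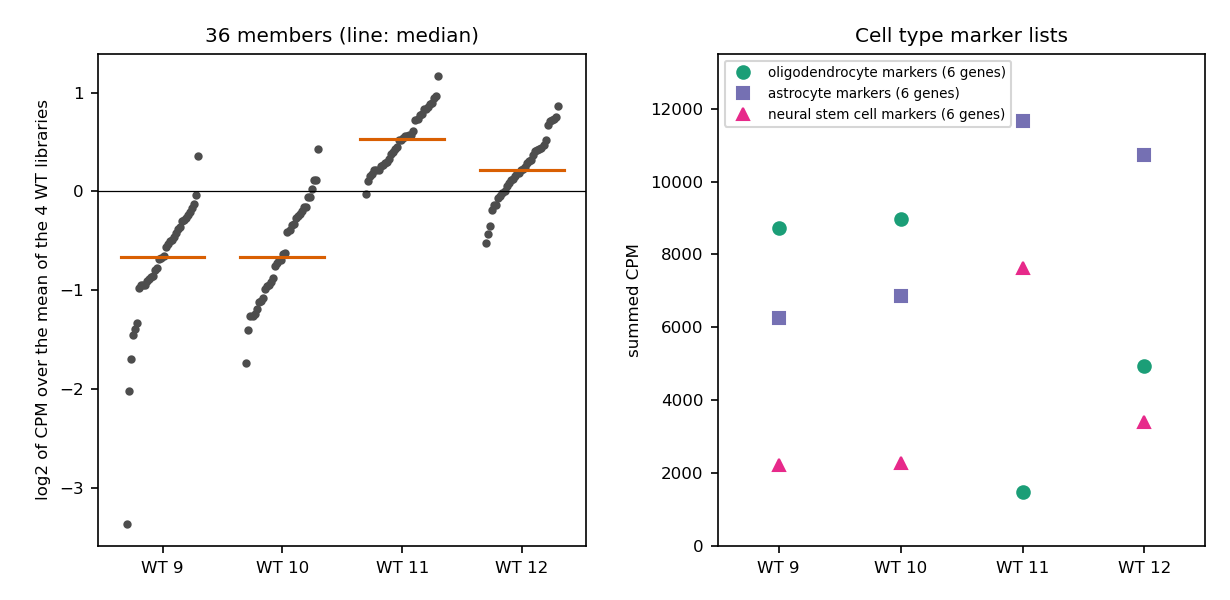
Left, log2 of the CPM of 36 members in each WT library over the mean of the 4 WT libraries, with 1 point per member in rising order and a line at the median, which lies at -0.67 in libraries 9 and 10 and at 0.53 and 0.22 in 11 and 12. Right, summed CPM of 3 marker lists in the same libraries, where the oligodendrocyte sum is lowest and the neural stem cell sum highest in library 11.

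Members of the module were higher in Ncf1-/- vehicle than in WT NSCs in most roles. With edgeR, 21 of 36 rose (28.9% of all genes tested), 1 fell (28.2% of all genes) and 14 did not pass an adjusted p of 0.05, and the median log2 fold change was 0.72, against 0.02 over all genes. In 18 members every vehicle library lay above every WT library (26.1% of all genes) and in 1 below (25.0% of all genes). The rises covered both receptor chains, 2 of 6 transcription factors, 3 of 4 genes of RNA sensing, 1 of 2 of the ISG15 system, 7 of 13 tested antiviral effectors, the chemokine Cxcl10, and 5 of 8 genes of MHC class I. None of the 22 called members changed sign under another scaling or test, although library totals moved the median of all genes to 0.193 and turned 2 of 36 members, and without WT library 9, 10, 11 or 12 there were 18, 17, 22 or 19 higher and 1 lower each time. The study's test of TPM called 11 higher and 0 lower. The astrocyte marker sum (2769 to 3248 CPM with vehicle, 6267 to 11650 in WT) and the oligodendrocyte sum were lower with vehicle without overlap. So were the sums of neuron markers (482 to 547 against 596 to 769 CPM) and of fibroblast and pericyte markers (58.4 to 65.6 against 76.7 to 141 CPM). Of the 6 tested fibroblast and pericyte markers, however, 3 were called higher and 2 lower with vehicle, so the sum does not describe them all. The 10 microglia and macrophage markers, 4 to 7 of them at 0 in a library, were higher, at 1.72 to 2.13 against 0.835 to 1.67 CPM. The part of these markers in the differences was not tested. Xist stood at 72.3 to 87.8 CPM with vehicle, against 3.87 to 5.22 CPM in WT libraries 9 to 11 and 291 CPM in library 12. Its part was not tested either.

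**Figure D3:**
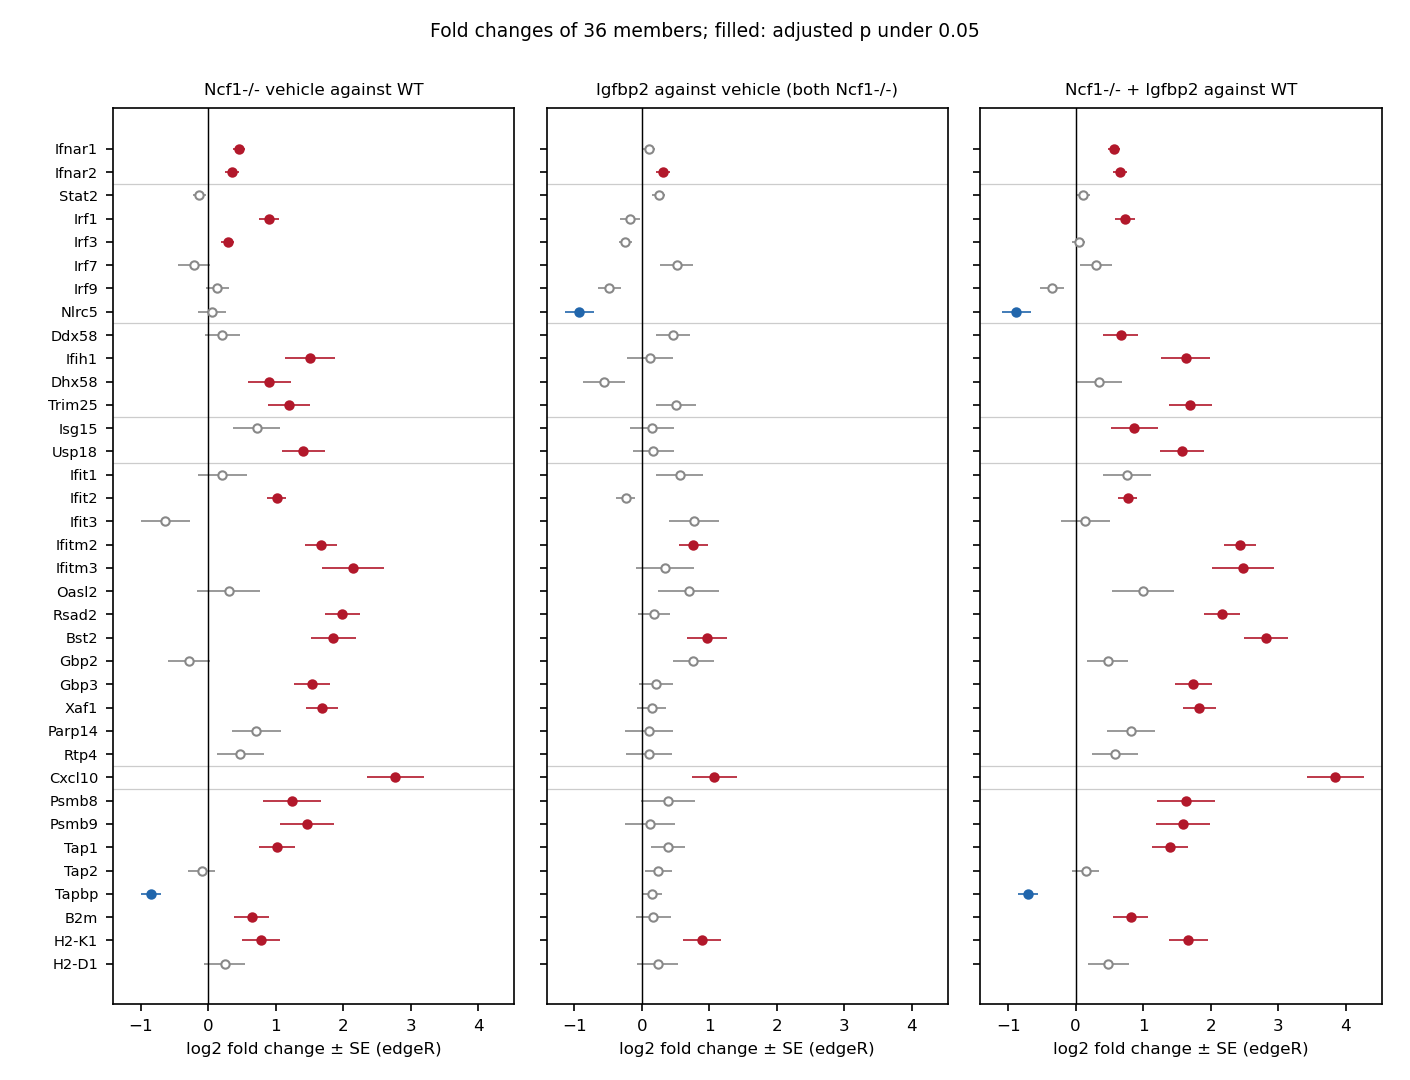
Log2 fold changes of 36 members with their standard errors in 3 comparisons (edgeR, 4 libraries a group), with filled points at an adjusted p under 0.05, red for higher and blue for lower. In the left and right panels 21 points are filled red, and in the middle panel 5, where 15 of 36 differences change sign under library totals and Ifnar2 does on the TPM scale.

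The receptor chains were modestly higher without Ncf1. Ifnar1 stood at 67.1, 72.5, 87.4 and 74.8 CPM in WT libraries 9 to 12, at 96.8, 103, 100 and 116 CPM in vehicle libraries 1 to 4, and at 109, 111, 117 and 111 CPM in Igfbp2-treated libraries 5 to 8. Its rise against WT was 0.46 ± 0.09 on the log2 scale (SE, adjusted p = 0.00066). Ifnar2 stood at 14.3, 14.3, 18.6 and 18.7 CPM in WT, at 20.6, 21.6, 20.9 and 20.9 CPM with vehicle, and at 29, 23.7, 25.7 and 25.9 CPM with Igfbp2. It was 0.35 ± 0.10 higher than WT with vehicle (adjusted p = 0.0119). For neither chain did a WT library reach the vehicle libraries, and both calls were lost in the study's test of TPM. RSEM gave Ifnar1 fractional counts in all 12 libraries, so part of its reads was shared with another gene.

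Among the transcription factors, Irf1, which is itself induced by interferon and binds the promoters of class I genes, rose most. Its levels were 6.37, 8.53, 9.44 and 7.13 CPM in WT, 17.3, 13.6, 15.4 and 12.9 CPM with vehicle, and 15.5, 12.8, 11 and 13.2 CPM with Igfbp2, and the vehicle group was 1.87-fold above WT (log2 0.91 ± 0.15, adjusted p = 0.000164). All 8 Ncf1-/- libraries were above all 4 WT libraries. Irf3, a constitutive factor activated by the sensor pathways, had 20.9, 20.6, 23.8 and 20.5 CPM in WT, 28.9, 25.5, 28.2 and 22.6 CPM with vehicle and 22.9, 23.7, 22.5 and 19.7 CPM with Igfbp2. The groups overlapped, and its call against WT (0.29 ± 0.10, adjusted p = 0.0191) was lost in 7 of 19 alternatives. Nlrc5, a transactivator of class I genes, had 3.91, 6.1, 8.4 and 4.18 CPM in WT and 6.4, 5.56, 6.05 and 5.6 CPM with vehicle, and was not called between them (0.05 ± 0.21). Stat2, Irf7 and Irf9 were not called either, with 14.3 to 17.8, 1 to 1.45 and 9.19 to 17.8 CPM in WT and 12.8 to 16, 0.783 to 1.26 and 13.1 to 15.6 CPM with vehicle.

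Genes of cytosolic RNA sensing were higher apart from Ddx58. Ifih1, which encodes the sensor Mda5 of long double-stranded RNA, was measured at 0.364, 0.54, 1.69 and 1.06 CPM in WT, at 2.96, 2.47, 2.3 and 3.17 CPM with vehicle and at 2.93, 2.88, 2.06 and 3.98 CPM with Igfbp2. It rose 2.85-fold against WT (log2 1.51 ± 0.37, adjusted p = 0.00322), with no overlap. Trim25, a ubiquitin ligase that acts on the sensor Rig-I, had 4.18, 3.13, 8.32 and 13 CPM in WT, 16.7, 16.2, 16.1 and 16.8 CPM with vehicle and 24.6, 20.6, 20.9 and 27.1 CPM with Igfbp2. The WT libraries were spread over a wide range for Trim25 but all lay below the others, and the rise was 1.20 ± 0.31 on the log2 scale (adjusted p = 0.00526). Dhx58, a helicase that modulates both sensors, was scarce, at 0.223 to 0.432 CPM in WT and 0.485 to 0.822 CPM with vehicle, and its call (0.91 ± 0.31, adjusted p = 0.0252) was lost in 9 of 19 alternatives. Ddx58, which encodes Rig-I, had 4.1 to 12.6 CPM in WT and 9.74 to 11.1 CPM with vehicle and was not called.

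In the ISG15 system, Usp18, the protease that removes Isg15 from proteins and dampens receptor signalling, had 0.546, 0.648, 1.89 and 1.11 CPM in WT, 3.14, 2.9, 2.96 and 2.65 CPM with vehicle and 3.65, 3.13, 2.3 and 4.03 CPM with Igfbp2. It rose 2.65-fold with vehicle against WT (log2 1.41 ± 0.32, adjusted p = 0.00212), and every Ncf1-/- library was above every WT library. Isg15, the ubiquitin-like modifier itself, had 0.364 to 0.774 CPM in WT and 0.709 to 1.26 CPM with vehicle, which overlapped, and was not called.

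Of 13 tested antiviral effectors, 7 rose from WT to vehicle. Ifitm3 and the nearby Ifitm2 (chr7:141009586-141010770 and chr7:140954837-140955987, both on the minus strand) encode related membrane proteins that hold back virus fusion. Ifitm3 was at 5.09, 3.99, 29.9 and 14.4 CPM in WT, 61.9, 60.0, 64.5 and 54.6 CPM with vehicle and 86.7, 73.2, 66 and 78.2 CPM with Igfbp2. Ifitm2 was at 4.28, 3.13, 8.4 and 4.45 CPM in WT, 18.9, 14.9, 16.5 and 15.8 CPM with vehicle and 33.2, 26, 23.4 and 29.6 CPM with Igfbp2. Against WT, Ifitm3 rose 4.42-fold (log2 2.14 ± 0.46, adjusted p = 0.0013) and Ifitm2 3.18-fold (1.67 ± 0.24, adjusted p = 5.1e-05) with vehicle. For each of them the 4 vehicle libraries lay within a narrow band above all WT libraries, and WT library 11 was the highest WT library. RSEM gave Ifitm2 fractional counts in 5 and Ifitm3 in 2 libraries, so some reads were divided between genes.

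Rsad2, or viperin, a radical-SAM enzyme that makes a chain-ending nucleotide, was at 0.91, 0.864, 1.92 and 1.67 CPM in WT, 5.62, 4.79, 5.92 and 5.48 CPM with vehicle and 7.09, 6.25, 4.06 and 7.36 CPM with Igfbp2. It rose 3.97-fold with vehicle against WT (log2 1.99 ± 0.26, adjusted p = 2.7e-05). Bst2, or tetherin, which keeps budding virions at the cell surface, was at 0.728, 0.594, 2.07 and 2.23 CPM in WT, 5.53, 5.08, 5.78 and 4.4 CPM with vehicle and 12.8, 8.29, 8.56 and 10.9 CPM with Igfbp2. Bst2 thus formed 3 groups of libraries with no overlap, and its rise from WT to vehicle was 3.62-fold (1.85 ± 0.33, adjusted p = 0.000332). Ifit2, which binds viral RNA, was at 7.78, 7.99, 12.6 and 9.08 CPM in WT, 17.9, 17.4, 20 and 20.9 CPM with vehicle and 17.8, 16, 15.3 and 15.4 CPM with Igfbp2, and rose 2.02-fold (1.02 ± 0.14, adjusted p = 4.4e-05).

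Gbp3, a guanylate-binding protein, was at 2, 1.46, 4.53 and 3.01 CPM in WT, 6.53, 8.51, 8.12 and 9.59 CPM with vehicle and 11, 8.17, 9.71 and 9.03 CPM with Igfbp2, a rise of 1.54 ± 0.27 on the log2 scale from WT to vehicle (adjusted p = 0.000275). Xaf1, a pro-apoptotic interferon target, was at 0.728, 0.432, 0.66 and 0.445 CPM in WT, 1.92, 1.79, 2.43 and 1.38 CPM with vehicle and 2.33, 1.8, 2.2 and 1.96 CPM with Igfbp2, a rise of 1.69 ± 0.24 (adjusted p = 5.8e-05). Both stood above all WT libraries in every Ncf1-/- library. The other effectors tested were not called between vehicle and WT. Their WT and vehicle ranges were 0.364 to 1.23 and 0.726 to 1 CPM for Ifit1, 1.14 to 3.01 and 1.08 to 1.5 CPM for Ifit3, and 0.318 to 2.21 and 1.31 to 1.96 CPM for Oasl2. They were 4.78 to 15.4 and 6.04 to 8.36 CPM for Gbp2, 1.46 to 5.65 and 3.27 to 5.71 CPM for Parp14, and 0.594 to 2.18 and 1.53 to 2.27 CPM for Rtp4. For all 6 the vehicle range overlapped that of WT.

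Cxcl10, a chemokine that draws activated T and NK cells, had the largest fold change of the module. It was at 0.0455, 0.216, 0.832 and 0.779 CPM in WT (1, 4, 29 and 14 counts), at 3.44, 3.19, 3.71 and 3.28 CPM with vehicle and at 8.47, 5.89, 6.12 and 8.25 CPM with Igfbp2. The 3 groups of libraries did not overlap, and the rise from WT to vehicle was 6.84-fold (log2 2.77 ± 0.42, adjusted p = 9.2e-05).

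**Figure D4:**
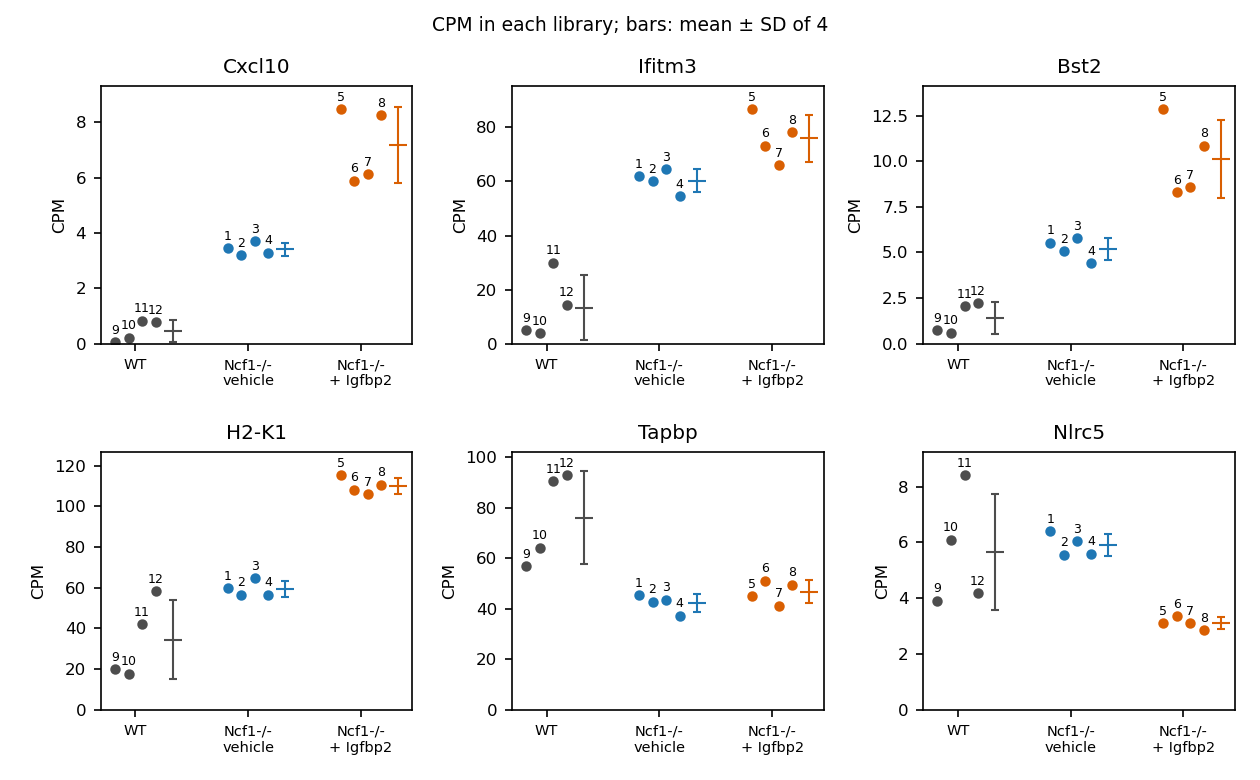
CPM of 6 members in each library, labelled by library number, with the mean ± SD of each group of 4. Cxcl10 and Bst2 form 3 separate levels, the Igfbp2-treated libraries of H2-K1 lie at 106 CPM or above, Tapbp is below all WT libraries in the Ncf1-/- groups, and Nlrc5 is lowest with Igfbp2.

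Within MHC class I and its peptide supply, the immunoproteasome subunits Psmb8 and Psmb9 were called higher in vehicle than in WT. Psmb8 was at 0.637, 0.971, 3.79 and 2.84 CPM in WT, 7.62, 4.74, 4.37 and 3.4 CPM with vehicle and 7.59, 6.97, 5.07 and 6.73 CPM with Igfbp2, with a rise of 1.24 ± 0.43 on the log2 scale (adjusted p = 0.0242) but with vehicle library 4 below WT library 11, and its call was lost in 4 of 19 alternatives. Psmb9 was at 0.364, 0.378, 1.92 and 1.34 CPM in WT, 3.62, 2.81, 2.87 and 2.35 CPM with vehicle and 3.6, 3.25, 2.53 and 3.29 CPM with Igfbp2, and rose 1.47 ± 0.40 (adjusted p = 0.00686). Tap1, a chain of the peptide transporter, was at 4.64, 5.83, 13.3 and 12.1 CPM in WT, 19.5, 18.7, 18 and 17.1 CPM with vehicle and 26.1, 24.7, 19.1 and 26 CPM with Igfbp2, and rose 2.02-fold (1.02 ± 0.27, adjusted p = 0.00521). Psmb9 and Tap1 overlap at their starts on opposite strands, both had fractional counts in all 12 libraries, and whether strand was used in counting is not given in the sources used here. Tap2, the other chain, was not called, with 9.73 to 22.6 CPM in WT and 13.5 to 15.6 CPM with vehicle.

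Tapbp was the only member to fall between vehicle and WT. It stood at 56.8, 64.1, 90.6 and 92.8 CPM in WT, 45.3, 42.8, 43.6 and 37.3 CPM with vehicle and 45, 51.1, 41.3 and 49.5 CPM with Igfbp2. Every Ncf1-/- library was below every WT library, and the vehicle group fell by 0.85 ± 0.15 on the log2 scale (adjusted p = 0.000271). The fall had the same sign under every scaling, and its call was lost in the study's test of TPM. Tapbp also had fractional counts in all 12 libraries.

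In the class I complex itself, B2m and H2-K1 were called with less margin between vehicle and WT. The heavy chain H2-D1 was not called there (log2 0.25 ± 0.31, edgeR adjusted p = 0.511) or in the other comparisons. B2m was at 41.6, 35.7, 96.6 and 88 CPM in WT, 108, 97.2, 101 and 105 CPM with vehicle and 126, 112, 97.3 and 126 CPM with Igfbp2. WT libraries 11 and 12 nearly reached the Ncf1-/- libraries, and the difference between vehicle and WT (log2 0.65 ± 0.26, adjusted p = 0.0475) lost its call in 11 of 19 alternatives. H2-K1, a classical heavy chain, was at 19.9, 17.8, 42.2 and 58.3 CPM in WT, 59.7, 56.6, 64.9 and 56.6 CPM with vehicle and 115, 108, 106 and 111 CPM with Igfbp2. Its vehicle libraries overlapped WT library 12, and that call (0.78 ± 0.29, adjusted p = 0.0324) was lost in 8 of 19 alternatives. Reads of H2-K1 and H2-D1 can be confused with each other and with other class I genes, and both had fractional counts in at least 11 libraries.

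Between Igfbp2-treated and vehicle Ncf1-/- NSCs, the share of members that rose was close to that of all genes. Of 36 members 5 (13.9%) rose and 1 fell, while 14.2% of all genes tested rose and 10.7% fell. In 10 members all treated libraries lay above all vehicle libraries and in 2 below, against 19.3% and 14.7% of all genes. The median log2 fold change was 0.22 with 30 of 36 above 0, but 15 members changed sign when library totals replaced TMM factors and 22 when TPM was used, and those scalings moved the median of all genes from 0.04 to -0.235 with library totals and to between -0.432 and -0.296 with TPM. With library totals 0 members rose and 5 fell. A fit of the Igfbp2 and vehicle groups alone, without the WT libraries, gave 11 higher and 4 lower. The same fit with the culture pairs stated in the methods as a replicate block gave 10 and 4. Within every stated pair Y-linked RNA differed, at 105 to 116 CPM with vehicle and 7.79 to 9.18 CPM with Igfbp2. The shares of all genes in these fits were not determined. The main fit shares its estimate of spread with WT, where the median coefficient of variation of members was 46.8%, against 9.91% with vehicle and 14.2% with Igfbp2. The part of this spread in the counts was not tested. Without WT library 12 there were 5 higher and 3 lower. Fibroblast and pericyte markers summed to 58.4 to 65.6 CPM with vehicle and 111 to 136 CPM with Igfbp2, and endothelial markers to 8.28 to 11.5 and 15.1 to 19.5 CPM. By gene, 4 of 6 tested fibroblast and pericyte markers were called higher with Igfbp2, but 1 of 4 tested endothelial markers, and 0 of either list lower. The part of these markers was not tested. Since Y-linked RNA separated the same libraries, treatment and sex-linked expression cannot be told apart here.

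The vehicle libraries also served in the comparison with WT NSCs, so both sets of values stand side by side and are not independent. Cxcl10 rose 2.11-fold (log2 1.08 ± 0.34, adjusted p = 0.0359) and Bst2 1.95-fold (0.96 ± 0.29, adjusted p = 0.0312). H2-K1 rose 1.85-fold (0.89 ± 0.29, adjusted p = 0.0381) and Ifitm2 1.7-fold (0.76 ± 0.22, adjusted p = 0.0249). For each of these 4, all treated libraries were above all vehicle libraries. Ifnar2 rose by 0.31 ± 0.10 (adjusted p = 0.0415), also without overlap, and its sign turned on the TPM scale. Each of the 5 calls was lost under at least 9 of 20 alternatives, and those of Cxcl10, Ifnar2, Bst2 and H2-K1 were lost when any of the 8 Ncf1-/- libraries was left out.

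Nlrc5 was the member that fell with Igfbp2, from 6.4, 5.56, 6.05 and 5.6 CPM with vehicle to 3.1, 3.37, 3.11 and 2.85 CPM. The fall was 0.93 ± 0.22 on the log2 scale (adjusted p = 0.00951), every treated library was below every vehicle and every WT library, and the call was lost only in the study's test of TPM, among 20 alternatives. Of the 8 genes of MHC class I and its peptide supply, H2-K1 was called higher with Igfbp2 and 7 were not called. Their relation to Nlrc5 was not tested. Irf9 also had all treated libraries (8.32 to 11.7 CPM) below all vehicle libraries (13.1 to 15.6 CPM) without passing the test (adjusted p = 0.0603). Ddx58 with 12.2 to 16.3 against 9.74 to 11.1 CPM, Gbp2 with 8.75 to 15 against 6.04 to 8.36 CPM and Tap2 with 15.8 to 19.2 against 13.5 to 15.6 CPM had treated libraries above vehicle libraries. So did Trim25 with 20.6 to 27.1 against 16.1 to 16.8 CPM and Ifitm3 with 66 to 86.7 against 54.6 to 64.5 CPM, and none of them was called.

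Within-library ratios do not depend on how libraries are scaled, and 4 pairs chosen after the values were seen are given as a description. The TPM of H2-K1 over that of H2-D1 was 0.83, 0.721, 0.69 and 0.779 in WT, 0.971, 1.04, 1.06 and 1.08 with vehicle and 1.51, 1.65, 1.94 and 1.49 with Igfbp2, with no overlap between the 3 groups. Ifitm3 over Ifitm2 was 1.07 and 1.15 in WT libraries 9 and 10 but 3.2 and 2.92 in 11 and 12, between 2.94 and 3.62 with vehicle and between 2.35 and 2.54 with Igfbp2. Psmb8 over Psmb5, the constitutive subunit that it replaces, was 0.0055 and 0.00758 in WT libraries 9 and 10, 0.0365 and 0.0298 in 11 and 12, 0.0303 to 0.0465 with vehicle and 0.0394 to 0.0591 with Igfbp2. Psmb9 over Psmb6 was 0.0015 and 0.00218, then 0.0107 and 0.00762, against 0.00915 to 0.0131 and 0.0101 to 0.0129 in the Ncf1-/- groups. By these ratios the immunoproteasome subunits remained a small part beside their constitutive counterparts in all libraries, and WT libraries 11 and 12 stood close to the Ncf1-/- libraries for all of them but H2-K1 over H2-D1, with the doubt on the treatment of library 12 given above.

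**Figure D5:**
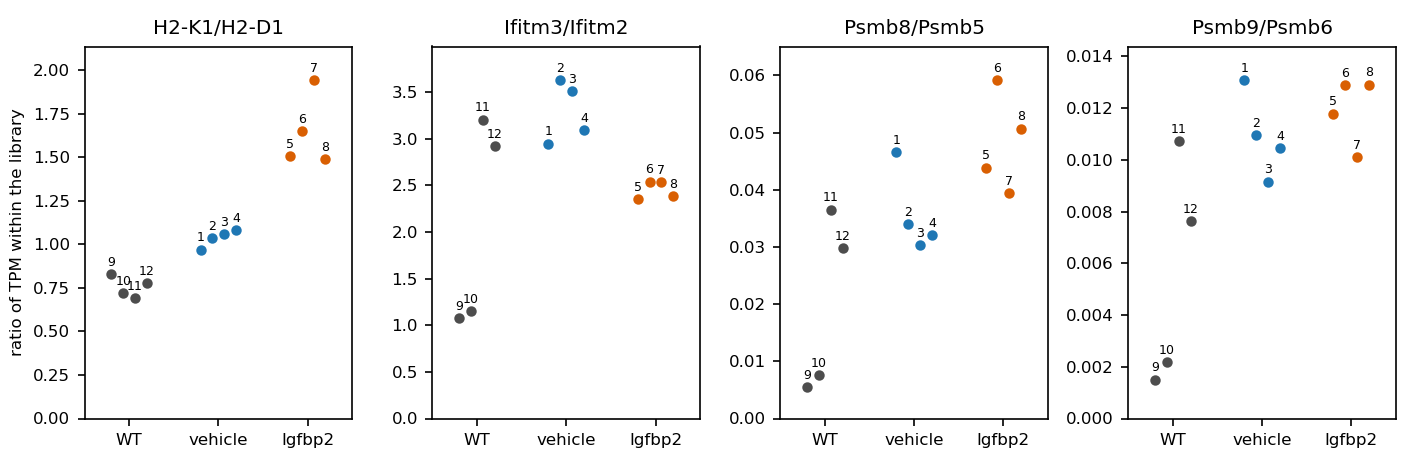
Ratio of the TPM of 2 genes within each library, labelled by library number, for H2-K1 over H2-D1, Ifitm3 over Ifitm2, Psmb8 over Psmb5 and Psmb9 over Psmb6. The first ratio is at most 0.83 in WT and at least 1.49 with Igfbp2, and in the other panels WT libraries 9 and 10 lie apart from the rest.

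Igfbp2-treated Ncf1-/- NSCs were set against WT NSCs in a comparison that shares its libraries with both others. In it 21 of 36 members rose (31.6% of all genes tested), 2 fell (30.8% of all genes) and 13 were not called, with a median of 0.8 and 19 members without overlap above WT (27.8% of all genes) and 2 below (26.6% of all genes). Library totals turned the sign of 1 member and TPM that of 6 or 7, with the median of all genes between -0.429 and -0.253 on the TPM scale, and without WT library 12 there were 22 higher and 2 lower. The study's test of TPM called 7 higher and 0 lower. Y-linked RNA (7.79 to 9.18 CPM against 107 to 118 in WT libraries 9 to 11) also differed. The sums of astrocyte markers (3126 to 4196 against 6267 to 11650 CPM), neuron markers (432 to 459 against 596 to 769 CPM) and oligodendrocyte markers separated the groups. Of the 6 astrocyte markers, however, 4 were called lower and 1 higher. The part of Y-linked RNA and of these markers was not tested. Cxcl10 was 14.4-fold above WT (log2 3.85 ± 0.42, adjusted p = 5.55e-06), Bst2 7.05-fold (2.82 ± 0.33), Ifitm3 5.58-fold (2.48 ± 0.46), Ifitm2 5.4-fold (2.43 ± 0.24) and Rsad2 4.5-fold (2.17 ± 0.26). H2-K1 was 3.18-fold above WT (1.67 ± 0.29, adjusted p = 0.000272) and had no overlap with it here. The falls were those of Nlrc5 (fell by 0.88 ± 0.22, adjusted p = 0.00332) and Tapbp (fell by 0.70 ± 0.15, adjusted p = 0.00105). Ddx58 (0.67 ± 0.26, adjusted p = 0.0377, with a sign that turned in the study's test of TPM) and Isg15 (0.87 ± 0.35, adjusted p = 0.0441) were also called, although their libraries overlapped those of WT. The call of Isg15 was lost in 14 of 19 alternatives, DESeq2 included, and that of Ddx58 in 12 besides the 1 that turned its sign.

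Interferon ligands were hardly measured. Of 10 listed ligand genes (Ifnb1, Ifng, Ifne, Ifnk, Ifna1, Ifna2, Ifna4, Ifna5, Ifnl2 and Ifnl3), 8 had 0 counts in all 12 libraries and all 10 together had 37 counts. Of 15 annotated Ifna genes, 11 were at 0 and all 15 had 7 counts in total. A count of 0 allows up to 3 counts per library at these depths, and counting error alone is covered by this limit.

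Other genes of the pathway, from lists of 126 symbols of which 88 genes were tested, numbered 38 higher and 14 lower in vehicle than in WT NSCs (median log2 fold change 0.35), where 28.9% of all genes were higher and 28.2% lower. Between Igfbp2 and vehicle they numbered 12 higher and 4 lower (median 0.1), against 14.2% and 10.7% of all genes, and the share higher was close to that of all genes. Between Igfbp2 and WT they numbered 44 higher and 12 lower (median 0.5), against 31.6% and 30.8% of all genes. Among nucleic acid sensing genes, 9 of 17 rose and 3 fell from WT to vehicle (28.9% and 28.2% of all genes). Tmem173, which encodes Sting, averaged 0.504 CPM in WT and 5.22 CPM with vehicle (log2 3.29 ± 0.37, adjusted p = 8.8e-06) and 9.62 CPM with Igfbp2, and Mb21d1, which encodes cGas, averaged 0.803, 4.69 and 4.64 CPM (2.54 ± 0.23, adjusted p = 1.3e-06). Tmem173 rose further with Igfbp2 (0.88 ± 0.29, adjusted p = 0.0444).

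Among 17 other genes of the MHC class I pathway, 10 rose and 2 fell from WT to vehicle (28.9% and 28.2% of all genes). H2-Q7, a nonclassical heavy chain whose reads may be split with near-identical H2-Q genes, averaged 2.6 CPM in WT, 10.6 CPM with vehicle and 13.1 CPM with Igfbp2 (2.02 ± 0.20 from WT to vehicle, adjusted p = 2.4e-06), and H2-T23 averaged 4.82, 10.3 and 11.8 CPM (1.07 ± 0.31, adjusted p = 0.00978). Between Igfbp2 and vehicle, Rfx5, a factor that works with Nlrc5 at class I promoters, was the called gene of the 17 and fell by 0.47 ± 0.10 (adjusted p = 0.00814). Of the constitutive proteasome counterparts, Psmb6 and Psmb7 rose from WT to vehicle by 0.37 ± 0.12 and 0.57 ± 0.08 and Psmb5 was not called. Of 5 MHC class II genes, 2 were tested, and H2-Ab1 averaged 3.73 CPM in WT, 5.57 CPM with vehicle and 11.7 CPM with Igfbp2, without a call between vehicle and WT (edgeR adjusted p = 0.225). Between Igfbp2 and WT, 1 of the 2 tested class II genes was called higher and 1 lower (31.6% and 30.8% of all genes).

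Among 35 tested interferon-stimulated genes outside the module, 11 rose and 5 fell from WT to vehicle. The share that rose was close to the 28.9% of all genes, and 28.2% of all genes fell. Oasl1 averaged 0.185 CPM in WT and 1.03 CPM with vehicle (2.31 ± 0.34, adjusted p = 7.4e-05) and Gbp4 0.404 and 1.56 CPM (1.91 ± 0.28, adjusted p = 6.4e-05). The falls included Mx2, a dynamin-like antiviral GTPase, from 7.11 to 2.76 CPM (fell by 1.36 ± 0.30, adjusted p = 0.00148), and Gbp6 (ENSMUSG00000104713, the more abundant of 2 genes of that symbol) from 25.6 to 11.1 CPM (fell by 1.20 ± 0.25, adjusted p = 0.00101). With Igfbp2, Lgals3bp rose from 9.54 to 24.6 CPM (1.36 ± 0.28, adjusted p = 0.00543) and 5 of the 35 rose in all, again close to the share of all genes (14.2%). Of 14 tested other receptor and Jak-Stat genes, 6 rose and 4 fell from WT to vehicle (28.9% and 28.2% of all genes), among them Il10rb, a chain of the interferon lambda receptor, from 3.57 to 11.2 CPM (1.62 ± 0.26, adjusted p = 0.000143).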

How the data were processed

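Per the labels, the authors aligned reads with Bowtie2 to GRCm38 and quantified genes with RSEM (versions and strand setting not given in the sources used here). The deposited files of each library hold estimated counts, TPM and FPKM (FPKM not used here), and in the authors' deposited table of all libraries each value is a score, equal to the TPM times the number of transcripts of the gene, and was not used for results. Estimated counts were rounded, and genes were kept by filterByExpr. edgeR 4.0.16 (R 4.3.3) with TMM factors and the quasi-likelihood test was fitted to all 12 libraries without covariates, and Benjamini-Hochberg adjusted p under 0.05 over 15706 genes counted as a call. Each group had 4 libraries, stated to come from 4 pups, which vehicle and Igfbp2 cultures shared. All 4 vehicle libraries held both Y-linked RNA (105 to 116 CPM) and Xist (72.3 to 87.8 CPM) at similar levels. Whether they came from 4 separate pups was not tested, and the standard errors and p-values treat them as independent. Distance between libraries was described by a chi-square of their counts per degree of freedom, not adjusted for depth. It was 4.72 between vehicle libraries 2 and 3 and 20.4 to 108 between other vehicle pairs. In WT it was 13.4 between libraries 9 and 10 and 42.1 to 146 between other pairs. With Igfbp2 it was 15.7 between libraries 5 and 8 and 41.7 to 94.1 between other pairs. Totals were 18201622 to 34086554 counts.

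Alternatives were DESeq2 1.42.0, library totals, no filter, 2 groups only, the study's test of TPM, limma 3.58.1 on log2(TPM + 1) and log2(TPM + 0.1), a replicate block, and each library left out. The scripts were tested on simulated data. The methods pair vehicle and Igfbp2 cultures by animal. Deviations of the 4 stated pairs from their group means correlated at -0.11 to 0.1, and those of 12 other pairs at -0.355 to 0.383.

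Values of every library are given for members with at least 30 counts on average that were called between vehicle and WT or between Igfbp2 and vehicle, and ranges for the others. Of each other list at most the 4 called genes with the largest fold change were open to naming, and H2-Ab1, Psmb5 and the ratio pairs were chosen after their values were seen. The members, lists and tests were chosen with earlier results of these data known.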

Additional observations from a re-analysis of the deposited data

Results flagged for a closer look

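In 4 of 108 groups of 4 libraries, 1 library stood apart from the other three by Dixon's criterion, which chance gives in about 1 of 20 groups. Irf3 had 23.8 CPM in WT library 11, with the nearest library at 20.9 CPM. Rtp4 had 1.53 CPM in vehicle library 4, with the nearest at 2.16 CPM. Stat2 had 15.9 CPM in Igfbp2-treated library 6, with the nearest at 17.7 CPM. Irf7 had 2.16 CPM in Igfbp2-treated library 8, with the nearest at 1.33 CPM.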

How the results depend on the processing

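Between Igfbp2 and vehicle, 5 members were higher and 1 lower, and the calls moved with most settings. They were 0 and 5 with library totals, 1 and 2 in the study's test of TPM, 1 and 5 with limma on log2(TPM + 1), and 0 and 5 on log2(TPM + 0.1). They were 11 and 4 in a fit of these 2 groups only, and 10 and 4 when that fit also had the stated culture pairs as a replicate block, and DESeq2 called 2 lower. With 1 library left out they were 0 to 6 higher and 1 to 3 lower. The higher count was 0 without vehicle library 2 or 3 or Igfbp2-treated library 5, 6 or 8, it was 1 without vehicle library 1 or 4 and 2 without Igfbp2-treated library 7, and 3 were lower without WT library 12. The lower count was 2 without WT library 9, 10 or 11 or vehicle library 4. Of the 6 calls 0 held in every setting, and Nlrc5 was lost only in the study's test. Ifnar2 turned to -0.02103 in that test and to -0.02267 and -0.02488 with limma.

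Between vehicle and WT, the study's test called 11 higher and 0 lower, 16 to 22 were higher with 1 library left out, and 11 of 22 calls held in every setting. Between Igfbp2 and WT, the study's test called 7 higher and 0 lower. The lower count was 5 and 4 in the limma fits. Of the higher calls, those of Isg15, Ddx58, B2m, Ifit2, Ifnar1 and Irf1 were lost in both limma fits. With 1 library left out 19 to 27 were higher and 2 to 3 lower, and 7 of 23 calls held throughout. Ddx58 turned to -0.02076 in the study's test. The causes were not tested. Members at a few counts per library, such as Dhx58 and Cxcl10 in WT, are limited by depth.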
